A study of Danio rerio with 28 samples.

Results

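Germ-plasm-rich cells were compared with the other cells of wild-type zebrafish embryos at 8 hours post fertilization (hpf), during gastrulation. A cell was called rich when it held at least 1 transcript of at least 3 of 7 germ plasm genes, listed in the table as germvasa, germnanos3, germdnd, germdazl, germtdrd7, germgra and germca15b, and it was called poor otherwise. The members were thus chosen by their measured levels of these 7 genes. By this rule 46 of the 101 wild-type cells at 8 hpf were rich and 55 were poor, out of 1203 cells of all ages and genotypes in the table.

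Germ plasm is a set of RNA and protein granules that the mother lays down in the egg. In zebrafish it gathers at the ends of the first cleavage furrows, passes to a few cells of the embryo, and marks those cells as primordial germ cells, the precursors of eggs and sperm. Its RNAs mostly encode proteins that bind RNA or build the granules, and during gastrulation the cells that inherited it migrate towards the future gonad while the surrounding cells form the body. Vasa is an RNA helicase, Nanos3 a translational repressor, Dnd and Dazl are RNA-binding proteins that protect germ plasm mRNAs or promote their translation, Tdrd7 is a Tudor domain protein of the granules, and ca15b encodes a carbonic anhydrase whose mRNA is a germ cell marker.

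All cells of the series were labelled germ cells and sorted singly into plates. The rich and poor wild-type cells came from 4 plates of 8 hpf embryos of wild-type mothers. For comparison, cells were classed by the same rule in 8 hpf embryos of maternal-zygotic tdrd6a-/- mothers (4 plates) and in wild-type embryos at 24 hpf (5 plates). Tdrd6a belongs to the Tudor family of germ granule proteins, and the series asks how it bears on the loading of germ plasm mRNAs into germ cells. The design text names a kop::egfp-f-nos1-3'UTR germ cell reporter for these mothers. Since nos1 is an older symbol of nanos3, and the assay reads the 3' end of mRNAs, reporter transcripts could share reads with germnanos3; whether they were counted there is not given in the sources used here. No label says whether plates were separate clutches, so the plate-to-plate spread may be technical, and the age, mothers and number of embryos behind a plate beyond these labels are not given.

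The rich share was uneven between plates. Plate 1 held 2 rich cells of 21, which is 9.52% with an exact Clopper-Pearson 95% interval of 1.18 to 30.4%. Plate 2 held 29 rich cells of 49 (59.2%, 44.2 to 73%), plate 3 held 3 of 6 (50%, 11.8 to 88.2%), and plate 4 held 12 of 25 (48%, 27.8 to 68.7%). The intervals cover counting error only. Plate 1 therefore held mostly poor cells, and plates 2 and 4 held 41 of the 46 rich cells. In the mutant plates 9 of 48, 15 of 36, 12 of 26 and 1 of 2 cells were rich, and in the 24 hpf plates 2 of 41, 7 of 20, 21 of 57, 7 of 35 and 16 of 43.

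**Figure D1:**
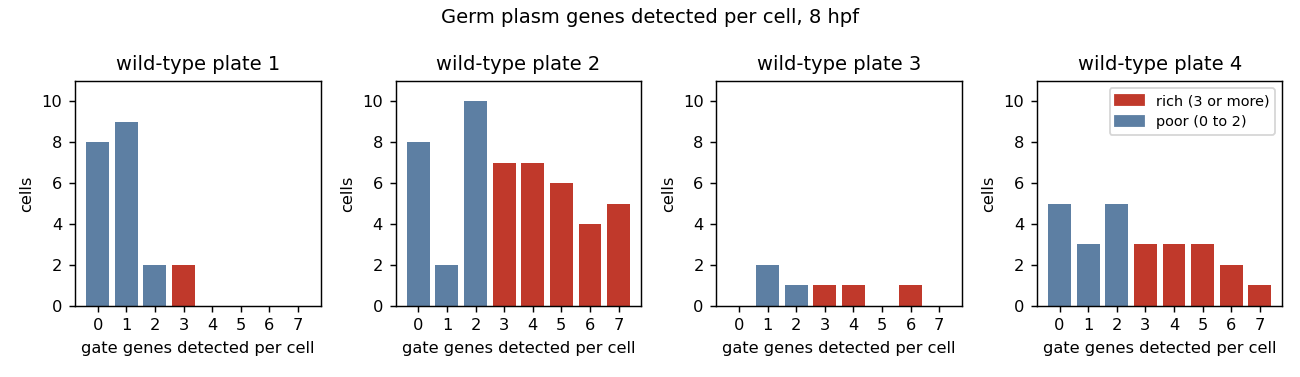
Number of wild-type cells at 8 hpf (vertical axis) by the number of the 7 germ plasm genes detected in the cell (horizontal axis), for plates 1 to 4. Red bars are rich cells (3 or more genes) and blue bars poor cells. Plate 1 reached no further than 3 genes, whereas plates 2 and 4 held cells with every number up to 7.

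The 7 genes chose the cells, so their levels are a description and carry no test. A level here is the mean number of transcripts per cell, which is the deposited value minus its floor of 0.1. Over the 4 plates, 21 cells held none of the 7 genes, 16 held 1 and 18 held 2, while 13, 11, 9, 7 and 6 cells held 3, 4, 5, 6 and 7. Rich cells held a median of 10.5 germ plasm transcripts (range 3 to 69), poor cells a median of 1 (range 0 to 6). These were 4.06% of all transcripts in rich cells and 0.305% in poor cells. The step at the threshold itself was small. The 13 cells just inside it, with 3 genes, held a median of 4 germ plasm transcripts (range 3 to 8), and the 18 cells just outside, with 2 genes, a median of 2.5 (range 2 to 6).

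Among the translational regulators, nanos3 was the most abundant and most often detected gene of the set. It was found in 91.3% of rich cells and 21.8% of poor cells, and a single rich cell held up to 26 transcripts. Its level was 1.5, 6.69, 1.67 and 6.42 transcripts per cell in the rich cells of plates 1, 2, 3 and 4, against 0.0526, 0.45, 0.667 and 0.385 in the poor cells. The rich cells of plates 2 and 4 thus stood well above those of plates 1 and 3. The gene dnd was found in 67.4% of rich and 7.27% of poor cells, at 2.97 and 1.08 transcripts per rich cell in plates 2 and 4, against 0.15 and 0.0769 per poor cell. The gene dazl was the rarest, found in 21.7% of rich cells and in 0 of 55 poor cells.

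Of the granule genes, vasa was the least selective. It was detected in 78.3% of rich cells and also in 34.5% of poor cells, at 2.55 and 2.58 transcripts per rich cell in plates 2 and 4 against 0.3 and 0.923 per poor cell. The Tudor gene tdrd7 was detected in 78.3% of rich and 10.9% of poor cells, and its rich level was 2.59 in plate 2 and 1.17 in plate 4, against 0.25 and 0 in poor cells. The gene gra, a germ granule gene, was detected in 54.3% of rich and 12.7% of poor cells. The marker ca15b was detected in 69.6% of rich and 7.27% of poor cells, at 3.1 and 2.83 transcripts per rich cell in plates 2 and 4 against 0.25 and 0 per poor cell, with up to 23 transcripts in a rich cell. The markers vasa, tdrd7 and ca15b, 3 of the 7 genes of the rule, were each found in most but not all rich cells, which the rule itself favours. Poor cells held them too, at lower levels. At the threshold, vasa was found in 46.2% of the cells with 3 genes and 55.6% of those with 2. These shares were 69.2% and 27.8% for tdrd7, and 23.1% and 16.7% for ca15b.

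**Figure D2:**
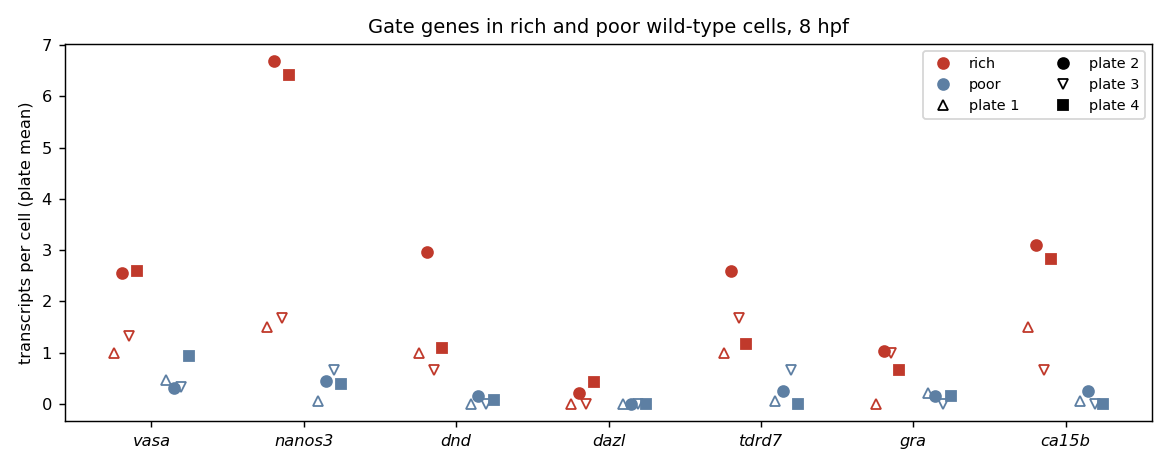
Mean transcripts per cell (vertical axis) of the 7 germ plasm genes in rich (red) and poor (blue) wild-type cells at 8 hpf, with a symbol for each plate. Filled symbols are plates 2 and 4, open symbols plates 1 and 3. Rich cells of plates 2 and 4 held 6.69 and 6.42 transcripts of nanos3.

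The total number of transcripts differed little between the classes, whereas rich cells of plates 2 and 4 detected more genes. The median number of transcripts of the other 1010 genes was 436.5, 361, 492 and 491.5 in the rich cells of plates 1 to 4, against 475, 357.5, 499 and 454 in the poor cells. Rich cells of plates 2 and 4 detected a median of 181 and 188 genes, against 150.5 and 171 in poor cells. A single clone-named gene, CABZ01111496.1, held a large part of these transcripts. It averaged 109.7 transcripts per rich cell and 138.1 per poor cell over plates 2 and 4. The rescaled and thinned settings used totals that include it, and its effect on the values of the other genes was not tested. No cell profiles were identical, and 25 of the 66 well numbers in use occurred in more than 1 of these plates, since plates share the same well barcodes.

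The test of rich against poor cells used plates and not cells as replicates. Only plates 2 and 4 had at least 10 cells with at least 3 of each class, so the fit rests on 2 plates, with the plate as a block, and plates 1 and 3 are given beside it as values. Plate 1 had 21 cells but 2 rich ones, so the need for 3 of each class left it out. Differences are on the scale of log2(mean transcripts per cell + 0.2), which understates the change of low genes. Of 374 genes tested with limma, 0 passed an adjusted p of 0.05 in either direction (0% of tested genes). At an unadjusted p under 0.05 there were 28 genes, 15 higher and 13 lower in rich cells, and limma voom on summed transcripts also called 0. The genes named next are those with the smallest p in each direction among genes that moved the same way in both plates, together with marcksl1b from the migration list, and at these settings they did not pass. Of the 20, 5 have clone names, CABZ01111496.1 among them, and are not described further. For the 20 genes, the choice itself fixed the agreement of plates 2 and 4, which 206 of all 374 tested genes had. For marcksl1b agreement was not required, but the gene was picked from its list by a small p in these plates, which favours agreement. Only plates 1 and 3, with 2 and 3 rich cells, were free to differ, so agreement in 4 of 4 plates carries no test.

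The small nuclear RNA U1, a core RNA of the spliceosome that recognises the start of introns, had the smallest p. Its level was 4.5, 12.9, 8 and 28 transcripts per cell in the rich cells of plates 1, 2, 3 and 4, against 3.16, 3.3, 2 and 1.23 in the poor cells. It was higher in the rich cells of 4 of 4 plates, with a log2 difference of 3.1 (SE 0.58, adjusted p = 0.0564). This SE leans on the spread over genes and does not measure the spread between plates 2 and 4. In plate 4 the rich cells ranged from 1 to 161 with a median of 13, and the poor cells from 0 to 3 with a median of 1, so that 11 of 12 rich cells lay above every poor cell. In plate 2 the classes overlapped, with rich cells from 0 to 110 (median 4) and poor cells from 0 to 27 (median 0), and 14 of 29 rich cells against 4 of 20 poor cells held more than 5 transcripts. U1 made up 3.61% and 6.12% of the other transcripts in the rich cells of plates 2 and 4, against 0.896% and 0.275% in the poor cells. In plates 1 and 3 the rich mean came from a single cell each, with 9 and 24 transcripts.

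U1 also varied among the rich cells. In plate 2 its mean was 22.3 transcripts in the 15 cells with 5 to 7 germ plasm genes and 2.79 in the 14 cells with 3 or 4, against 3.58 in the 12 cells with 1 or 2 and 2.88 in the 8 cells with none. In plate 4 it was 45.8 in the 6 cells with 5 to 7 genes and 10.2 in the 6 cells with 3 or 4, against 1.25 in the 8 cells with 1 or 2 and 1.2 in the 5 cells with none. The higher means thus started at 3 genes in plate 4 and at 5 genes in plate 2. The means of the cells with 5 to 7 genes include a cell with 110 transcripts in plate 2 and a cell with 161 in plate 4. Without the cell highest in U1 of each plate and class, the log2 difference was 2.87, with an adjusted p of 0.000626 in the joint fit with the other groups and of 3.69e-08 in the wild-type plates alone, a fit with 1 residual degree of freedom. The latter value leans on the spread over genes and does not measure agreement between the 2 plates, where exact sign permutation cannot go below 0.5. Rich and poor means were then 9.39 and 2.05 in plate 2, and 15.9 and 1.08 in plate 4. U1 is not polyadenylated and is encoded by many near-identical gene copies, so the value under this name may gather several loci.

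The other structural RNAs of the table were much rarer. The spliceosomal U5 had 0.586 and 0.333 transcripts per rich cell in plates 2 and 4 against 0.05 and 0 per poor cell (log2 1.53, SE 0.60, adjusted p = 0.416), and in plate 1 it was 0 in rich and 0.211 in poor cells. U6 had a log2 difference of 0.49 (SE 0.60, adjusted p = 0.837) and 5.8S ribosomal RNA, listed as 5_8S_rRNA, of 0.14 (SE 0.32, adjusted p = 0.902). U2, U3, U8, SNORA73 and SNORA81 were below the level needed for a test.

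**Figure D3:**
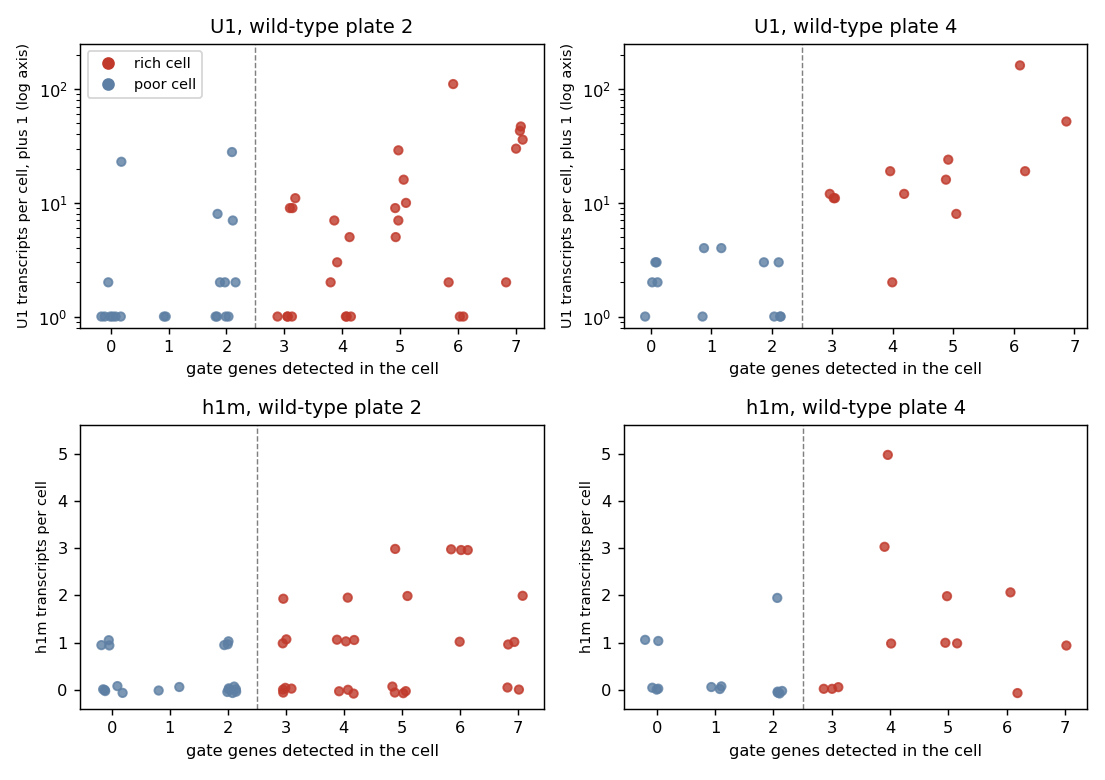
Transcripts of U1 (upper panels, 1 added, log axis) and of h1m (lower panels) in single wild-type cells at 8 hpf of plates 2 and 4 (vertical axes) by the number of germ plasm genes detected (horizontal axis, points spread sideways for visibility, and slightly upwards and downwards for h1m). Rich cells are red and poor cells blue, and the dashed line is the threshold. In plate 4, 11 of 12 rich cells had more than 3 U1 transcripts.

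The maternal linker histone gene h1m, whose product packs the chromatin of eggs and early embryos and whose mRNA persists in zebrafish germ cells, came next. Its level was 1, 0.966, 0.667 and 1.33 transcripts per cell in the rich cells of plates 1 to 4, against 0.211, 0.3, 0.667 and 0.308 in the poor cells. It was thus higher in the rich cells of 3 plates and equal in plate 3, with a log2 difference of 1.41 (SE 0.30, adjusted p = 0.0994). In plate 2 it was detected in 55.2% of rich and 30% of poor cells, in plate 4 in 66.7% and 23.1%, and a cell held up to 5 transcripts. Over all 4 plates 26 of 46 rich cells and 13 of 55 poor cells held it.

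Among the stress and RNA granule genes, the chaperone gene hsp90aa1.2 had 0, 0.586, 0.333 and 0.833 transcripts per rich cell in plates 1 to 4, against 0.0526, 0.2, 0 and 0 per poor cell (log2 1.67, SE 0.44, adjusted p = 0.223). The stress granule gene g3bp1 had 1, 0.586, 0.333 and 1.25 per rich cell, against 0.579, 0.35, 1 and 0.231 per poor cell (log2 1.13, adjusted p = 0.334), and plate 3 went the other way. The small heat shock protein gene hspb1 stood lower in rich cells of 3 plates. It had 1.5, 0.483, 0.667 and 0.75 transcripts per rich cell, against 0.737, 1.55, 2 and 1.54 per poor cell (log2 -1.11, SE 0.35, adjusted p = 0.334). In plate 2 it was detected in 31% of rich and 30% of poor cells, and the 2 highest poor cells held 11 and 6 transcripts. In plate 4 it was detected in 41.7% of rich and 61.5% of poor cells.

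Among the genes of signalling, chromatin and the cell cortex, id1, an inhibitor of basic helix-loop-helix factors that responds to BMP signals, was higher in the rich cells of 4 of 4 plates. Its level was 1, 0.586, 0.333 and 0.667 in rich cells, against 0.105, 0.2, 0 and 0.0769 in poor cells (log2 1.31, SE 0.40, adjusted p = 0.33). In plate 3 it was found in 1 of 3 rich cells. In cells with 0, 1 or 2, 3 or 4 and 5 to 7 germ plasm genes its mean was 0.375, 0.0833, 0.0714 and 1.07 in plate 2. In plate 4 these means were 0.2, 0, 1 and 0.333. PPFIBP1, which encodes the scaffold protein liprin beta 1, had 0, 0.414, 0.667 and 1.08 transcripts per rich cell against 0.0526, 0.05, 0 and 0.308 per poor cell (log2 1.32, adjusted p = 0.293). The actin-binding protein gene marcksl1b had 3, 1.31, 1.67 and 1.92 transcripts per rich cell against 1.26, 0.75, 0.333 and 0.769 per poor cell, higher in 4 of 4 plates (log2 0.90, SE 0.34, adjusted p = 0.408). The remaining named genes with higher values were the Ran exchange factor gene rcc1 (log2 1.17), GTSF1L, named for its likeness to a gametocyte factor (log2 1.15), and the histone H4 methyltransferase gene setd8b (log2 1.08), each with an adjusted p of 0.408 and each lower or equal in the rich cells of at least 1 of the small plates.

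On the lower side, the apolipoprotein gene apoc1l had 0.5, 0.138, 0 and 0.0833 transcripts per rich cell, against 1, 0.65, 0.333 and 0.385 per poor cell. It was lower in the rich cells of 4 of 4 plates (log2 -1.19, SE 0.40, adjusted p = 0.408). The nucleosome-binding protein gene hmgn2 had 0.5, 0, 0 and 0.0833 per rich cell, against 0.211, 0.6, 0 and 0.385 per poor cell (log2 -1.52, SE 0.52, adjusted p = 0.408), and plate 1 went the other way. The ribosomal protein gene rps16 had 0, 0.138, 0.333 and 0.167 per rich cell against 0.684, 0.45, 1 and 0.615 per poor cell, and rps20 had 0, 0.724, 1 and 0.333 against 1.37, 1.2, 2.67 and 0.923. Both were lower in the rich cells of 4 of 4 plates, of which plates 2 and 4 were fixed by the choice of genes. Their log2 differences were -1.05 and -0.84, each at an adjusted p of 0.408. The gene rpl22 (log2 -1.21, adjusted p = 0.408) was lower in the rich cells of plates 2 and 4 but higher in those of plates 1 and 3. Ribosomal protein genes have near-identical copies that may share reads.

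**Figure D4:**
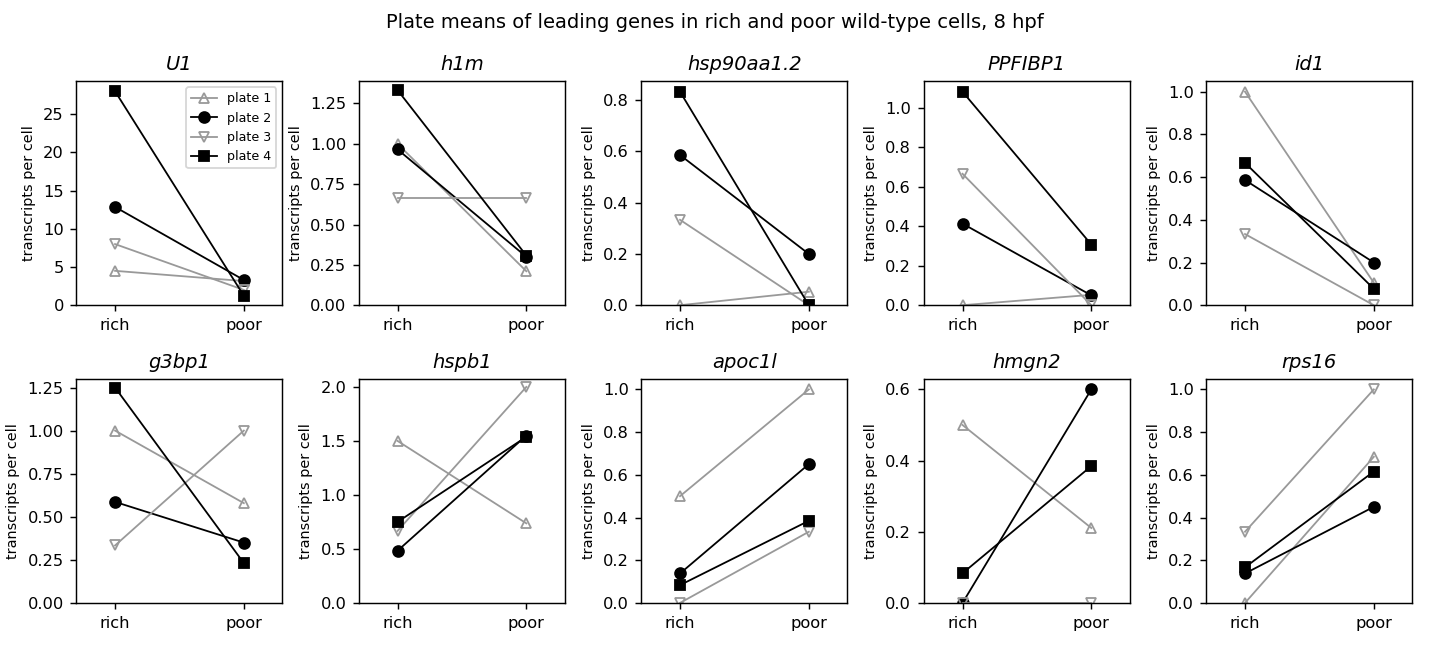
Mean transcripts per cell (vertical axes) in rich and poor wild-type cells at 8 hpf, joined within each plate, for 10 of the named genes. Black filled symbols are plates 2 and 4, which entered the fit, and grey open symbols the small classes of plates 1 and 3. U1, id1, apoc1l and rps16 moved the same way in 4 of 4 plates, of which plates 2 and 4 had to agree for a gene to be chosen.

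Whole gene groups showed no called member, against 0% of all tested genes, and are described by counts and medians. Over all 374 genes the median log2 difference was 0.06, with 208 above and 166 below 0. Of the further germline genes only h1m was abundant enough to test. The Piwi genes piwil1 and piwil2 were each found in at most 1 cell of either class, and the meiotic genes dmc1 and sycp3 in none. The 3 tested oocyte and maternal genes were h1m, the kinase gene wee2 (log2 0.84, adjusted p = 0.653) and the cyclin gene ccnb1 (log2 0.09, SE 0.41, adjusted p = 0.951). All 3 differences were positive on the deposited scale, and 2 of 3 in thinned cells, and ccnb1 was higher in the rich cells of plate 2 and lower in those of plate 4. The wee2 difference came from plate 4, with 0.917 transcripts per rich and 0.154 per poor cell, while plate 2 had 0.207 and 0.2. The germ plasm organiser gene buc and the genes btg4 and cth1 were at 0 in both classes.

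Cell cycle genes had 10 positive and 2 negative differences among 12 tested (median 0.28), with plk1 at 0.98 and MKI67 at 0.60. Splicing factor and hnRNP genes had 21 positive and 7 negative among 28 (median 0.21), with srsf1a at 0.81 and srsf6a at 0.68. The 5 tested nuclear-encoded respiratory genes, atp5a1 at 0.45 among them, were all positive (median 0.24). These medians kept their sign when cells were rescaled or thinned to a common total or when voom was used, although thinning left 1 respiratory gene to test. Ribosomal protein genes had 25 positive and 42 negative among 67 (median -0.24), and that median too kept its sign, at -0.16, -0.07 and -0.11 under the rescaled, thinned and voom settings.

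Mitochondrially encoded transcripts had 3 positive and 7 negative differences among 10 (median -0.15), which turned to 0.07 in thinned cells, and their sum per cell was 43 in rich against 61.9 in poor cells of plate 2 and 17 in rich against 12.9 in poor cells of plate 4. The medians were 0.06 for migration and adhesion genes (9 tested), 0.05 for chromatin genes (14 tested), 0.03 for translation genes (16 tested) and -0.08 for stress genes (6 tested). Scaling moved some of them, to 0.23 for chromatin genes and -0.02 for migration and adhesion genes in thinned cells, where all genes had 0.05, and to 0.31 for translation genes with voom, where all genes had 0.11. The eukaryotic translation genes eif1axb and eef1g were at 0.84 and 0.60, the prothymosin gene ptmab at -0.71, the p53 target ccng1 at 0.04, marcksb at -0.38, slc25a3b at 0.39, mt-nd5 at -0.43 and mt-nd2 at -0.27, none of them past the threshold.

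Markers of other cell types were present in both classes. Epidermal and enveloping layer genes summed to 3.5, 0.586, 2.67 and 0.917 transcripts per rich cell in plates 1 to 4, against 4.89, 1.3, 2.67 and 1.46 per poor cell. They were thus lower or equal in the rich cells of each plate, and they were highest in plate 1. The keratin gene krt4, the only 1 of the 13 listed genes that could be tested, had a log2 difference of -0.28 (SE 0.32, adjusted p = 0.821). It was found in 16 of 46 rich and 33 of 55 poor cells, krt8 in 5 and 19, krt5 in 2 and 11, and krt18 in 3 and 9, counts that pool plates of unlike makeup and were not tested. The mesoderm genes tbx16 and msgn1 were at -0.51 and -0.64 (adjusted p = 0.657 and 0.812), and tbx16 was found in 20 of 46 rich and 29 of 55 poor cells. The yolk syncytial layer gene apoeb was at -0.24 (adjusted p = 0.884), and the 3 listed pluripotency genes were too rare to test, with nanog found in 9 rich and 2 poor cells, pou5f3 in 5 and 8, and sox3 in 1 and 5. Blood, macrophage and hatching gland genes were at 0 in all these cells. The contribution of such cells or their RNA to the differences between rich and poor cells was not tested.

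Cells of the other groups were fitted together with plates 2 and 4, in a joint fit of 8 plates and 455 genes that shares one estimate of the spread. It held 8 hpf mutant plates 2 and 3 and 24 hpf wild-type plates 2 to 5, leaving out mutant plate 1, a plate that also carried heterozygous cells. In this fit U1 rose in rich wild-type cells at 8 hpf (log2 3.1, SE 0.49, adjusted p = 0.000387), the only gene of 455 called (0.22% of tested genes, called as higher). The SE and adjusted p rest on the shared estimate and do not measure the spread between wild-type plates 2 and 4. Plate 4 carried the call, with a log2 difference of 1.90 without it and 4.30 without plate 2. When plate 1 was added to the fit of the wild-type plates alone, U1 did not pass.

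The germ plasm levels of rich cells in both genotypes at 8 hpf are descriptions, since the rule used the same genes. Rich cells of wild-type plates 1 to 4 held 1.5, 6.69, 1.67 and 6.42 nanos3 transcripts, against 1.56, 2.8, 3.75 and 1 in those of mutant plates 1 to 4. For vasa the rich cells held 1, 2.55, 1.33 and 2.58 in wild type, against 0.667, 0.8, 1.17 and 0 in mutants, and for ca15b 1.5, 3.1, 0.667 and 2.83 in wild type, against 0.222, 0.467, 0.333 and 0 in mutants. Wild-type plates 2 and 4 stood above every mutant plate for these 3 genes, whereas plates 1 and 3 lay within the mutant range in nanos3, and plate 1 in vasa. The other genes of the rule were mixed. For dazl plates 2 and 4 also stood above, but for dnd, tdrd7 and gra plate 4 did not. Its rich cells held 1.08, 1.17 and 0.667, against 1.13 in mutant plate 2, 1.22 in mutant plate 1 and 1 in the single rich cell of mutant plate 4. Outside the 7 genes, 0 of 455 genes passed in mutant rich against mutant poor cells (0% of tested genes), with 53 at an unadjusted p under 0.05 and a smallest adjusted p of 0.2155.

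U1 stood lower in rich than in poor cells of the fitted mutant plates, a difference that did not pass. Its level was 0.867 and 0.5 transcripts per rich cell in mutant plates 2 and 3, against 1.62 and 1.29 per poor cell (log2 -0.93, SE 0.49, adjusted p = 0.477). The rich minus poor difference in wild type exceeded that in mutants by 4.03 on the log2 scale (SE 0.69, adjusted p = 0.00151), the only such call of 455 genes (0.22%). This call was lost when mutant plate 1 entered the fit (3.42, adjusted p = 0.0803). In that plate U1 was at 7.11 in rich and 3.72 in poor cells. It was also lost without wild-type plate 4 (2.83, adjusted p = 0.561), without mutant plate 2 (4.19, 0.0967) or 3 (3.87, 0.204) and without 24 hpf plate 3 (4.03, 0.088). Over all plates, U1 was higher in rich cells in 4 of 4 wild-type and 2 of 4 mutant plates at 8 hpf. These plates are not equal replicates. Wild-type plates 1 and 3 held 2 and 3 rich cells, with U1 in a single rich cell each, and mutant plate 4 held 1 rich and 1 poor cell.

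The histone gene h1m had a log2 difference of 1.41 in wild type and 1.57 in mutants. Rich and poor mutant cells averaged 1.17 and 0.321 transcripts in the fitted plates (log2 1.57, SE 0.40, adjusted p = 0.2155). Values were higher in the rich cells of 4 of 4 mutant plates, of which plate 4 held 1 rich and 1 poor cell. The wild-type difference minus the mutant difference was -0.16 (SE 0.56, adjusted p = 0.978), an error that leaves room for sizeable differences either way. PPFIBP1 was at 1.32 in wild type and 1.16 in mutants, and g3bp1 at 1.13 and 0.83. GTSF1L was at 1.15 and 1.13, and setd8b at 1.08 and 0.94. Of the 10 higher genes with the smallest p, 9 were in this fit and 7 were also positive in mutants, where 67.7% of all genes were. Of the 10 lower genes 6 were also negative in mutants, where 32.3% of all genes were. The genes hsp90aa1.2, hspb1, rps16 and rpl22 had opposite signs in the genotypes, at 1.67, -1.11, -1.05 and -1.21 in wild type and -0.17, 0.42, 0.40 and 0.55 in mutants, and none of these differences between genotypes passed (adjusted p = 0.61, 0.73, 0.643 and 0.584). In the fitted plates the mutant sign of hsp90aa1.2 came from plate 3, at 0.0833 in rich against 0.286 in poor cells. Mutant plates 1 and 2 went as in wild type (0.333 against 0.103 and 0.2 against 0.0952). Mutant plate 4, with 1 rich and 1 poor cell, went the other way (0 against 1). With mutant plate 1 in the fit the mutant value of hsp90aa1.2 was 0.16. The gene hspb1 was higher in the rich cells of 2 of 4 mutant plates, and rps16 and rpl22 in 3 of 4. The ribosomal protein genes as a group had a median of 0.43 in mutants, where the median of all genes was 0.19.

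At 24 hpf, wild-type rich cells differed from poor cells in more genes, with 9 higher (1.98% of tested genes) and 34 lower (7.47%). This group has 4 plates in the fit against 2. The balance of directions depended on scaling, since cells rescaled to the same total gave 14 higher and 11 lower genes. Depth differed between these classes, with a median of 473.5, 472, 482, 433 and 410.5 transcripts of other genes in the rich cells of 24 hpf plates 1 to 5, against 558, 661, 477.5, 593 and 456 in the poor cells, and its role in these calls was not tested further. Of the 9 genes higher at 24 hpf 6 were also positive in wild-type cells at 8 hpf, where 54.5% of all genes were, and of the 34 lower genes 21 were negative, where 45.5% of all genes were. The keratin genes krt4 and krt8 fell in rich cells at 24 hpf, by 1.42 (adjusted p = 0.00512) and 1.55 (adjusted p = 0.00258) on the log2 scale. The corresponding 8 hpf values were -0.28 and -0.70, not called. The genes ptmab and hmgn2 fell by 1.71 and 1.11 (adjusted p = 9.84e-05 and 0.0345), and 8 of 75 ribosomal protein genes fell (10.7%, beside 7.47% of all genes), with a group median of -0.46 where all genes had -0.15. For h1m the 24 hpf difference was 0.85 (SE 0.28, adjusted p = 0.0545), with higher values in the rich cells of 5 of 5 plates. The same held for GTSF1L (0.82, adjusted p = 0.0962) and hsp90aa1.2 (0.53, adjusted p = 0.249), and none of the 3 passed. Of the 10 higher genes with the smallest p at 8 hpf, 9 were in the joint fit and 6 were positive at 24 hpf, where 36.5% of all genes were. Of the 10 lower genes 7 were negative, where 63.5% of all genes were.

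The difference between ages itself was called for 3 genes (0.659% of tested genes). The gene id1 stood higher in rich cells at 8 hpf (0.586 and 0.667 in rich against 0.2 and 0.0769 in poor cells of plates 2 and 4) and fell in rich cells at 24 hpf, where rich cells averaged 0.224 and poor cells 1.15 transcripts in the 4 fitted plates (log2 -1.89, SE 0.35, adjusted p = 0.00134, lower in 5 of 5 plates). The 8 hpf difference exceeded the 24 hpf difference by 3.20 (SE 0.60, adjusted p = 0.00554), and the adjusted p was 0.148 without wild-type 8 hpf plate 4. U1 had a difference between ages of 2.67 (SE 0.60, adjusted p = 0.0306), with levels at or below 1.29 transcripts in every class of the 24 hpf plates. Its call was lost without wild-type 8 hpf plate 4 (1.46, adjusted p = 0.894), without 24 hpf plates 2 or 3, without either mutant plate, and with mutant plate 1 or rescaled cells. The fatty acid binding protein gene fabp3 differed by 2.38 (SE 0.57, adjusted p = 0.0392). It averaged 0.16 transcripts in rich and 0 in poor cells at 8 hpf, and 0.566 and 1.86 at 24 hpf. It was thus too low to be tested at 8 hpf alone and entered the joint fit through the 24 hpf cells. Its call was lost without either 8 hpf wild-type plate, without either mutant plate, without 24 hpf plate 4, and with rescaled cells. For hspb1 the sign also turned, at -1.11 at 8 hpf and 1.13 at 24 hpf (adjusted p = 0.0345), and the difference of -2.25 had an adjusted p of 0.0562. At 24 hpf hspb1 was higher in the rich cells of 4 of 5 plates, with 3.29 against 0.385 in plate 2. In plate 3 it was lower, at 0.476 against 0.639.

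**Figure D5:**
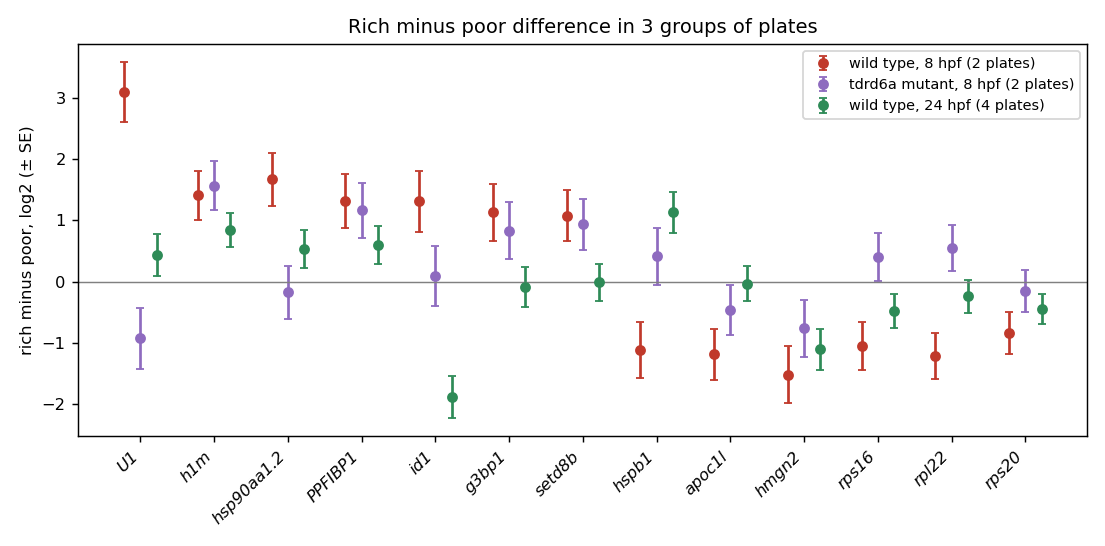
Rich minus poor difference on the log2 scale with its standard error (vertical axis) for 13 named genes (horizontal axis), in wild-type cells at 8 hpf (red, 2 plates), in tdrd6a mutant cells at 8 hpf (purple, 2 plates) and in wild-type cells at 24 hpf (green, 4 plates), from the joint fit. U1 was at 3.1, -0.93 and 0.43, and id1 at 1.31, 0.10 and -1.89. The standard errors come from the shared estimate of the spread and do not measure the spread between the plates of a group.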

How the data were processed

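Per the labels' protocols, single sorted cells were extracted with Trizol and amplified with CEL-seq, which reads mRNA 3' ends under well barcodes. The submitters' processing notes name BWA and the genome build Zv9. The authors deposited 1 table of the series whose signal values are whole numbers plus 0.1 (tolerance 1e-06). How reads were counted, cells scaled and genes chosen is not given in the sources used here, so "transcripts" names the value minus 0.1 and not proven molecules. The table held 1017 genes and 1203 cells of 28 libraries. Here 409 cells were used and 794 were not. Of the gene names 941 matched the symbol tables used, and no coordinates are given. Wells 49 to 96 of mutant plate 1, which are labelled heterozygous, were left out. The tdrd6a gene itself is not analysed here.

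Means per plate and class were tested with limma 3.58.1 in R 4.3.3 (trend and robust moderation, two-sided, Benjamini-Hochberg over all genes tested, threshold 0.05) on log2(mean + 0.2), for genes with a mean of at least 0.2 over both classes and outside the 7 that define the classes. Plate was a block, since both classes of a plate come from 1 library. The wild-type fit left 1 residual degree of freedom and a prior of 11.35, the joint fit 5 and 22.48, so standard errors and p-values lean on the spread over genes. Exact sign permutation over 2 plates cannot go below 0.5. The script was tested on simulated data. Precision is limited by the low number of transcripts per cell and by 12 to 29 rich cells per fitted plate.

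Named genes were the 7 defining genes, the 10 higher and 10 lower with the smallest p and the same sign in both plates, and up to 2 per list of 23 gene lists, of which 16 had a tested gene. The members and lists were chosen with earlier results of these data known. The genes krt8 and fabp3, the list members given by cells detected and the structural RNAs beside U1 were added after their values were seen. Alternatives changed the class rule, pseudocount, filter, scaling, plates, test, weights and block.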

Additional observations from a re-analysis of the deposited data

Results flagged for a closer look

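Over 43 sets of 4 or 5 plates examined, 2 held a plate far from the others in the rich minus poor log2 difference, where chance alone gives about 1 in 20. For srsf6a, plate 4 of the wild-type cells at 8 hpf stood at 0.904, while plates 1, 2 and 3 were at 0.44, 0.45 and 0.47. For atp5a1, plate 3 stood at 2.115, while plates 1, 2 and 4 were at 0.44, 0.45 and 0.46, and plate 3 held 3 rich and 3 poor cells.

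The rich minus poor difference of U1 in wild-type cells at 8 hpf exceeded that in mutant cells of the same age by 4.03 on the log2 scale in the joint limma fit. This call was lost with mutant plate 1 in the fit (3.42, adjusted p = 0.0803) and without 24 hpf plate 3 (adjusted p = 0.088). The value was 2.83 without wild-type 8 hpf plate 4. The corresponding difference between wild-type cells at 8 and 24 hpf was called for id1 (3.20), U1 (2.67) and fabp3 (2.38), and fabp3 was below the level needed for a test at 8 hpf alone. The calls of U1 and fabp3 were lost in rescaled cells (adjusted p = 0.111 and 0.0678), and that of U1 also with mutant plate 1 in the fit (0.107).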

How the results depend on the processing

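No gene passed at the settings used for the 2 wild-type plates alone. With other settings, 4, 3 and 2 genes were higher at pseudocounts of 0.1, 0.5 and 1, 1 without a filter and 3 at a mean of at least 0.5, and 1 in rescaled and 2 in thinned cells. With rich cells set at 2 or more genes 1 was higher and 4 lower, at 4 or more 5 and 1. The joint fit gave 1 higher, the 4 plates together 1 lower. Leaving out a plate of the joint fit gave 0 to 1 higher, with the lone plate assumed to vary like the other groups. Without the plate block the count was 0, with 23 genes at an unadjusted p under 0.05. U1 was positive in all 19 alternatives and passed in 12, with an adjusted p from 4.29e-15 to 0.731. It missed with poor cells of 0 genes (0.517), voom (0.0612), weights (0.0928), all plates (0.527), without the block (0.274) and without plate 4. It also missed with the 3 plates of 10 or more cells (0.654), which include plate 1 and its 2 rich cells. That setting drops only the need for 3 cells of each class, and it was added after seeing the data. h1m was positive in all 18 and passed in 6. With 4 or more genes, hsp90aa1.2 (1.89), id1 (1.77) and PPFIBP1 (1.61) also passed.

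Of 560 values of 34 named genes, 25 turned sign, all of genes that did not pass, and 22 genes never did. With rich cells at 2 or more genes these were tbx16 (0.14), srsf1a (-0.0567), srsf6a (-0.12), eef1g (-0.19), slc25a3b (-0.41) and mt-nd5 (0.51), and at 4 or more marcksb (0.0895). With poor cells of 0 genes they were ccng1 (-0.0799), srsf6a (-0.11) and slc25a3b (-0.0204), in thinned cells apoeb (0.0942), with voom ccng1 (-0.12) and with weights ccng1 (-0.0903). With all plates they were GTSF1L (-0.0384), tbx16 (0.20), ccng1 (-0.89) and slc25a3b (-0.50), and with the 3 plates of 10 or more cells tbx16 (0.0364), ccng1 (-0.48) and mt-nd2 (0.0909). Without plate 2 krt4 (0.0851) and apoeb (0.31) turned, and without plate 4 marcksb (0.35), ccng1 (-0.38) and slc25a3b (-0.0279). The cause was not tested.

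In the joint fit, rescaled cells gave 14 higher and 11 lower genes at 24 hpf and 1 difference between ages, and with mutant plate 1 there were 0 differences between genotypes. Leaving out a plate gave 0 to 13 higher and 6 to 51 lower genes at 24 hpf, 0 to 1 differences between genotypes, and 0 to 4 higher and 0 to 2 lower between ages. Thinning to 250 transcripts left out 1 of 41 rich and 3 of 33 poor cells.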
